A study of Mus musculus with 11 samples.

Results

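The 9 nucleotide synthesis enzymes Rrm1, Rrm2, Tk1, Tyms, Cad, Dhodh, Umps, Ppat and Impdh2 were followed in mouse livers in which an active form of YAP had been switched on for 3 or 7 days. They were taken by gene symbol from a table of 20893 genes, and all 9 passed the filter on low values that left 14244 genes for testing. All mice were C57BL/6 and carried ROSA26-rtTA-IRES-EGFP, a doxycycline-dependent activator. In the study's cross it is released by a Cre under the albumin promoter, which the paper describes as induction in hepatocytes. The 4 control livers, labelled WT in place of tetYAP, came from mice fed doxycycline for 7 days, while the 4 livers at 3 days and the 3 livers at 7 days carried tetYAP (YAP S127A placed at Col1A1) and had doxycycline in the food for those times. The controls therefore shared the activator and the longer feeding, and no control fed for 3 days was analysed here. Whether the controls also carried the Cre is not given in the sources used here. Total RNA of whole homogenised liver was sequenced, with 1 library per labelled replicate, and the ages of the mice are not given in the sources used here. Levels are in eRPKM, the authors' read count scaled to exon length and library size. Levels of different genes can be set side by side only roughly, because reads of very abundant genes did not follow depth. Alb, for instance, had 3102 reads in the deepest control library and 2417 in the shallowest.

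A dividing cell must copy its DNA from the 4 deoxynucleotides, and it can build these from small precursors (de novo synthesis) or recover them from free bases and nucleosides (salvage). Cad, Dhodh and Umps carry out the steps to UMP, the first pyrimidine nucleotide, Ppat commits phosphoribosyl pyrophosphate to purines, and Impdh2 directs purines towards GTP. Ribonucleotide reductase, made of the large subunit Rrm1 and the small subunit Rrm2, turns ribonucleotides into deoxyribonucleotides, while thymidylate is made by Tyms from dUMP or by Tk1 from thymidine. Rrm2, Tk1 and Tyms are known as genes of the S phase, and hepatocytes of the adult liver rarely divide.

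After 7 days of YAP induction both subunits of ribonucleotide reductase and thymidine kinase were higher than in the controls, whereas Tyms and Ppat were within 0.19 of them on the log2 scale. With a limma adjusted p under 0.01 and a log2 fold change above 0.5, taken as the threshold throughout, 3 of the 9 enzymes rose at 7 days (Rrm1, Rrm2 and Tk1), against 18% of all genes tested. The 3 7-day livers lay above all 4 controls for 6 of the 9 enzymes, against 36.7% of all genes. Fold changes are on the scale of log2(eRPKM + 0.5), which understates those of low genes. The median log2 fold change of the 9 enzymes was 0.84, beside 0.26 over all genes tested. At 3 days 0 of the 9 passed, against 0.0421% of all genes that rose. An unadjusted limma p under 0.05 was found for 2 of the 9, beside 1718 of all 14244 genes tested. Rrm2 lay above all controls in 4 of 4 livers. Such a complete separation upwards was seen in 3.38% of all genes at 3 days.

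The libraries held 1251396 to 5495697 reads on genes in the controls, 2660233 to 3681416 in the 3-day group and 5312486 to 5941357 in the 7-day group, so the 7-day group was the deepest of the 3. By their Xist and Y-linked reads 2 of the 4 controls, 2 of the 4 livers at 3 days and 3 of the 3 livers at 7 days were from females, and neither depth nor sex was balanced over time. The names of 3-day livers 1 and 4 and of 7-day liver 2 end in MF, whose meaning is not given in the sources used here. Reads on the mouse Yap1 gene stood at 13.9 to 21.1 eRPKM in the controls, at 15.3 to 19.3 after 3 and at 17.4 to 19.0 after 7 days, which gives no check of the transgene, because whether its reads fall on this gene is not given. The median shift of 0.26 at 7 days was 0.03 with median-ratio size factors and -0.08 with quantile normalisation. With it the 2561 rises and 822 falls of the deposited scaling at 7 days became 1951 and 1254 with size factors and 1857 and 1821 with quantile normalisation. Likewise, the 1997 rises and 756 falls between both times of induction became 1516 and 1181, and 1436 and 1430. In whole liver, a change in RNA per cell and a change in the number of cells holding that RNA cannot be told apart, and p-values measure only the spread between these libraries.

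In control livers the 9 enzymes fell into 3 ranges of levels. Impdh2 had a mean of 38.1 eRPKM, Tk1 34.2, Ppat 25.2 and Umps 20.4, and the ranges of neighbours in this order overlapped. Tyms, with 8.98 eRPKM, was separated from Umps above it and from Rrm1 below it in every control. Rrm1 (6.29 eRPKM), Cad (5.06), Rrm2 (4.97) and Dhodh (3.85) formed the lowest range, again with overlapping neighbours. At 7 days the order was Tk1 (71.7 eRPKM), Impdh2 (69.6) and Rrm2 (55.4), then, with no overlap, Umps (28.6), Rrm1 (25.0) and Ppat (24.0), then Cad (12.1) and Tyms (10.3), and last Dhodh (6.19).

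**Figure D1:**
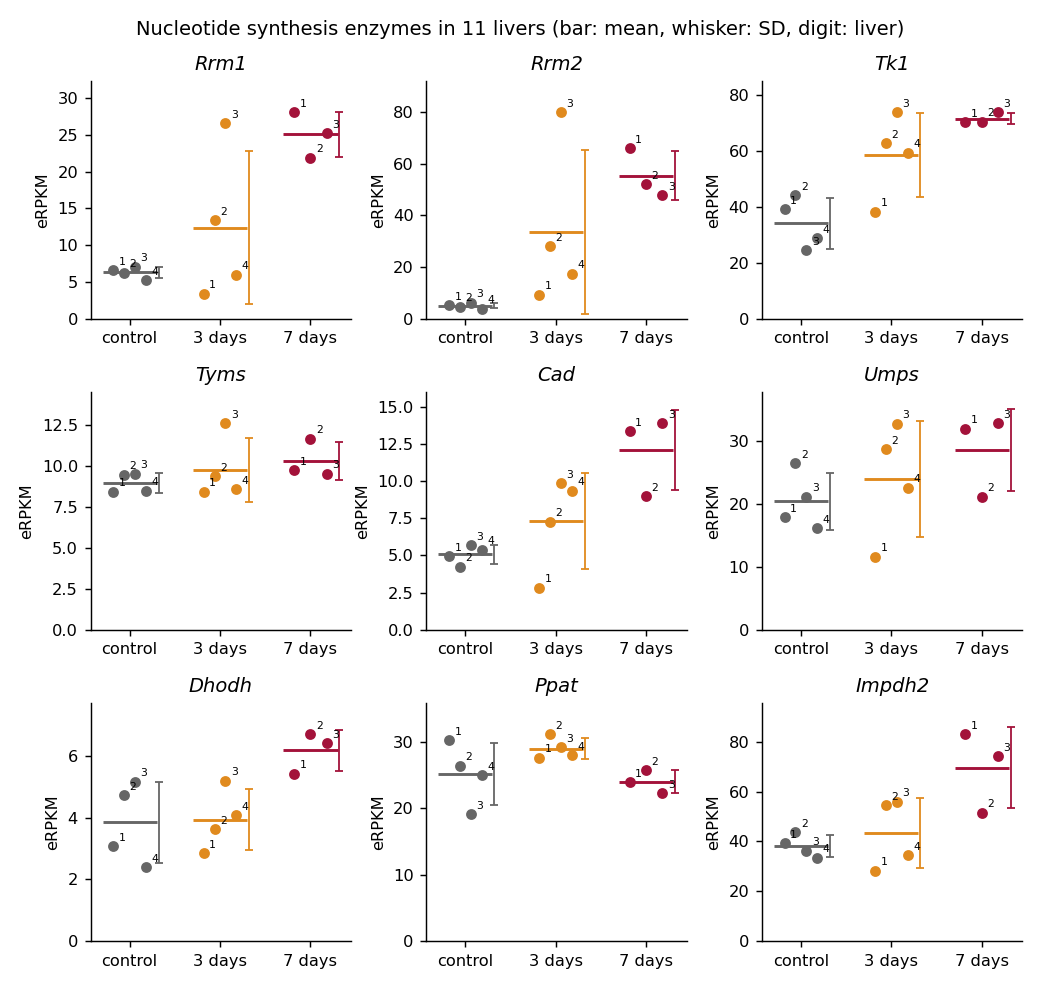
Level in eRPKM (y axis, from 0) of each of the 9 enzymes in control livers (n = 4), at 3 days (n = 4) and at 7 days (n = 3) of YAP induction; points are livers with their replicate number, the bar is the mean and the whisker 1 SD. For Rrm2 every induced liver lies above the controls, while for Tyms and Ppat the 7-day livers lie among or close to them.

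Rrm2, the small subunit whose amount follows the cell cycle, had the highest fold change of the 9 enzymes. The gene lies on chromosome 12 (25393106 to 25399011, plus strand, mm9) and had 5.25, 4.61, 6.10 and 3.91 eRPKM in control livers 1 to 4, from 11 to 57 reads per library. At 3 days it had 9.35, 28.0, 80.1 and 17.4 eRPKM in livers 1 to 4. At 7 days the 3 livers had 66.1, 52.0 and 47.9 eRPKM, from 572 to 796 reads. Even the lowest induced liver was above the highest control, and 3-day liver 3 exceeded all livers at 7 days. The means were 4.97 ± 0.932 (SD, n = 4), 33.7 ± 31.8 (SD, n = 4) and 55.4 ± 9.54 eRPKM (SD, n = 3). The 7-day log2 fold change of 3.35 (SE 0.50), a fitted 10.2-fold increase with a 95% interval of 4.80 to 21.8, passed the threshold (limma adjusted p = 0.000257, 3.97e-06 to 0.00777 over 21 alternatives, all of which it passed).

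At 3 days all 4 livers lay above the controls for Rrm2, which gave the smallest exact permutation p that these group sizes allow (p = 0.0286). This was 1 of 27 exact tests of single enzymes, whose p-values are not adjusted. The log2 fold change of Rrm2 was 2.22 (SE 0.47, 95% interval 1.21 to 3.23) and did not pass across all genes (limma adjusted p = 0.0738). It passed in 1 of 22 alternatives only: without 3-day liver 1, the lowest of the 4, the value was 2.67 (limma adjusted p = 0.0064). Over the 22 the limma adjusted p ranged from 0.0064 to 0.210. Both 3-day livers with the name ending MF were below both others, and with that ending as a covariate the change was 2.80 (limma adjusted p = 0.0170).

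Rrm1, the large subunit that holds the catalytic site, rose at 7 days and was spread widely at 3 days. The gene lies on chromosome 7 (109590209 to 109618285, plus strand, mm9) and had 6.60, 6.26, 7.06 and 5.24 eRPKM in the controls. It had 3.37, 13.4, 26.6 and 6.00 eRPKM at 3 days, and 28.1, 21.9 and 25.2 at 7 days. At 3 days liver 1 was below all controls, liver 4 was among them, and livers 2 and 3 were above them, whereas all 3 livers at 7 days were above. The mean went from 6.29 ± 0.773 (SD, n = 4) to 12.3 ± 10.4 (SD, n = 4) and 25.0 ± 3.11 eRPKM (SD, n = 3). Its log2 fold change was 0.55 at 3 days (SE 0.45, limma adjusted p = 0.656) and 1.91 at 7 days (SE 0.49, limma adjusted p = 0.00797). The 7-day value stood close to the threshold and passed in 6 of 21 alternatives. Without any single one of the 7 livers the change stayed between 1.83 and 2.004 and the limma adjusted p was between 0.0150 and 0.0324, and with depth as a covariate the change was 1.61 (limma adjusted p = 0.0951).

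The promoters of Rrm2 and Rrm1 are shown because both subunits passed at 7 days, with those of Tk1 and Tyms for the other deoxynucleotide enzymes, of which 1 passed and 1 did not. Each is the 250 bases before the RefSeq start of the gene, read 5′ to 3′ on the gene's strand in GRCm38.p6, a later build than the mm9 of the table. Capitals mark CCAAT, the core of the CCAAT box bound by NF-Y in many promoters of cell cycle genes. Rrm2 is chr12:24708004-24708253 (plus strand), Rrm1 chr7:102441445-102441694 (plus strand), Tk1 chr11:117826015-117826264 (minus strand) and Tyms chr5:30073626-30073875 (minus strand).
Rrm2: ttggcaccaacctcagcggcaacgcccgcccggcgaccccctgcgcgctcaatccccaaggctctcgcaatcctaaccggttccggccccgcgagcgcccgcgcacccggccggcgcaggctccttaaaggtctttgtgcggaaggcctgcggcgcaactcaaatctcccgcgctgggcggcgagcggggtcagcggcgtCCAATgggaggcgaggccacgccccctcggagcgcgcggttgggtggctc
Rrm1: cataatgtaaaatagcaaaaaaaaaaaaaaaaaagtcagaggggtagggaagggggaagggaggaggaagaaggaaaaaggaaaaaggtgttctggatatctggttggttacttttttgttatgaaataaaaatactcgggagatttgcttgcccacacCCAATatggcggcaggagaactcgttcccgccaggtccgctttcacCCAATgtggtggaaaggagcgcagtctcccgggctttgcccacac
Tk1: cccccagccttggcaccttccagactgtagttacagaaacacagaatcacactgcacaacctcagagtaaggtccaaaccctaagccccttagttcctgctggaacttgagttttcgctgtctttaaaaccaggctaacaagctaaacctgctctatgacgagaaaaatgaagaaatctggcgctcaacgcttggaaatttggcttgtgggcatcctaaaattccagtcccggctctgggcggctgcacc
Tyms: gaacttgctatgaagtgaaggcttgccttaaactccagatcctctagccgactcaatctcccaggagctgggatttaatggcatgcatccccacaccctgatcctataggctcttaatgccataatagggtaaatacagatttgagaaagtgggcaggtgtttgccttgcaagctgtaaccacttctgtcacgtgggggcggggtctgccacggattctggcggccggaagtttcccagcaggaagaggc
Rrm2 held 1 CCAAT, 50 to 46 bases before its start, and Rrm1 held 2, at 91 to 87 and 45 to 41 bases before it. Both strands were searched, and 33.8% of the 32851 promoter windows of the same length hold CCAAT, so its presence does not set these genes apart. The windows of Tk1 and Tyms held no CCAAT. The letters TTTCCCGC, TTTCGCGC, TTTGCCGC and TTTGGCGC, used here for E2F sites and present in 1.86% of all windows, were found in 1 of the 8 enzymes with a RefSeq entry. This was Ppat, with TTTCCCGC on the other strand at 211 to 204 and 158 to 151 bases before the start. These letters are a narrow choice, and only bases before the start were searched, so no match does not mean no E2F site. The Rrm1 window, for instance, holds ttcccgcc, which the search left out. TTTGAA, the core of the CHR element of cell cycle promoters and present in 16% of windows, was found in Umps, 95 to 90 bases before its start. GGAATG, a core of TEAD sites present in 12.6% of windows, was found in 0 of the 8. These matches describe the letters of the windows, and no overlap of 1 motif with another was seen in them.

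Tk1, the cytosolic thymidine kinase of dividing cells, was abundant already in the controls. It lies on chromosome 11 (117676840 to 117687406, minus strand, mm9) and had 39.3, 44.2, 24.4 and 28.9 eRPKM in the controls, 38.3, 62.9, 73.9 and 59.5 at 3 days and 70.4, 70.7 and 74.1 at 7 days. At 3 days 3 of the 4 livers were above every control, and at 7 days all 3 were, within a narrow range. The mean was 34.2 ± 9.11 (SD, n = 4), 58.7 ± 14.9 (SD, n = 4) and 71.7 ± 2.06 eRPKM (SD, n = 3). The log2 fold change was 0.77 at 3 days (SE 0.22, limma adjusted p = 0.160) and 1.10 at 7 days (SE 0.24, limma adjusted p = 0.00293), a fitted 2.14-fold increase. Without 7-day liver 1, 2 or 3 the 7-day change no longer passed (limma adjusted p = 0.0119 to 0.0149), and with depth as a covariate it was 0.71 (limma adjusted p = 0.0513). It passed in 16 of 21 alternatives. In the gene models used here for positions, exons of Tk1 overlap those of Afmid on the other strand. With unstranded alignment, reads in such an overlap cannot be told apart. Whether the exons that the authors counted for Tk1 overlap Afmid is not given.

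Tyms, thymidylate synthase, did not pass at either time. The gene (chromosome 5, 30384742 to 30400157, minus strand, mm9) had 8.43, 9.47, 9.54 and 8.49 eRPKM in the controls, 8.43, 9.39, 12.6 and 8.58 at 3 days and 9.72, 11.7 and 9.53 at 7 days. All groups overlapped. Its 7-day log2 fold change was 0.19 (SE 0.18, 95% interval -0.21 to 0.58, limma adjusted p = 0.454), and turned to -0.07 with size factors and -0.35 with quantile normalisation. The interval reaches a fitted 1.50-fold increase. Its exons overlap those of Gm17448 on the other strand, and the table also lists the pseudogene Tyms-ps at 0.678 to 3.33 eRPKM, with which Tyms may share reads, so its level is uncertain.

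**Figure D2:**
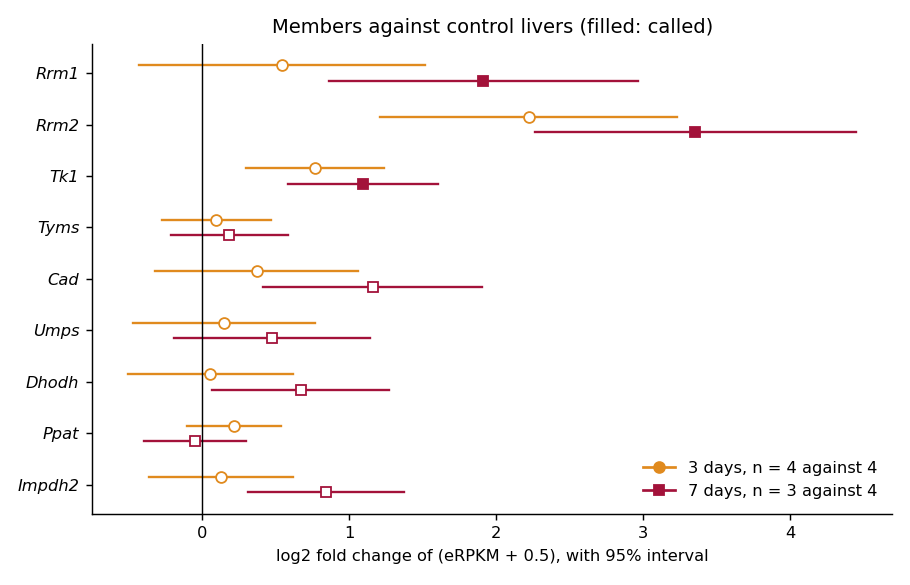
Log2 fold change of (eRPKM + 0.5) against the 4 control livers (x axis) for each enzyme, at 3 days (circles, n = 4) and 7 days (squares, n = 3), with 95% intervals from limma; filled symbols passed the threshold. Rrm1, Rrm2 and Tk1 are filled at 7 days, and no symbol is filled at 3 days.

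Of the 3 enzymes that make UMP, Cad and Dhodh were above all controls in every liver at 7 days and Umps in 2 of 3, and none passed the threshold. Cad, a single protein with the first 3 activities of the pathway (chromosome 5, 31357153 to 31380852, plus strand, mm9), had 4.93, 4.25, 5.69 and 5.37 eRPKM in the controls. It had 2.82, 7.26, 9.86 and 9.35 at 3 days and 13.3, 8.99 and 13.9 at 7 days. At 3 days liver 1 was below all controls and the other 3 livers above them. The 7-day log2 fold change of Cad was 1.16 (SE 0.34, 95% interval 0.41 to 1.91, limma adjusted p = 0.0183, exact permutation p = 0.0286). Over 21 alternatives its limma adjusted p ranged from 0.00188 to 0.143, and it passed in 4 of them, such as among female livers only (1.19, limma adjusted p = 0.00869).

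Dhodh, the mitochondrial dehydrogenase that oxidises dihydroorotate (chromosome 8, 112115243 to 112132573, minus strand, mm9), was the lowest of the 9 at each time. It had 3.08, 4.74, 5.17 and 2.40 eRPKM in the controls, 2.86, 3.62, 5.20 and 4.07 at 3 days and 5.42, 6.71 and 6.43 at 7 days. The 7-day livers were above all controls and all 3-day livers. Its 7-day log2 fold change was 0.67 (SE 0.28, limma adjusted p = 0.0754, exact permutation p = 0.0857), and it came to -5.5e-05 with quantile normalisation. Umps, which carries the last 2 steps to UMP (chromosome 16, 33954868 to 33967124, minus strand, mm9), had 17.9, 26.5, 21.2 and 16.1 eRPKM in the controls, 11.6, 28.7, 32.8 and 22.6 at 3 days and 32.0, 21.1 and 32.9 at 7 days. The 7-day livers overlapped the controls through liver 2, and the log2 fold change was 0.48 (SE 0.31, 95% interval -0.19 to 1.14, limma adjusted p = 0.246). The exons of Umps overlap those of Gm15829 on the other strand.

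The purine enzymes Ppat and Impdh2 differed in their values. Ppat, the amidotransferase that opens purine synthesis (chromosome 5, 77342274 to 77380603, minus strand, mm9), had 30.3, 26.4, 19.1 and 25.0 eRPKM in the controls, 27.6, 31.1, 29.2 and 28.0 at 3 days and 24.0, 25.8 and 22.3 at 7 days. The 7-day values lay within the range of the controls. The log2 fold change was -0.05 (SE 0.16, 95% interval -0.40 to 0.30, limma adjusted p = 0.830), and among female livers only it was 0.09. Its exons overlap those of Paics, a later enzyme of purine synthesis, on the other strand. Impdh2, the main IMP dehydrogenase of dividing cells (chromosome 9, 108462774 to 108467895, plus strand, mm9), had 39.2, 43.6, 36.2 and 33.4 eRPKM in the controls, 28.2, 54.6, 56.0 and 34.4 at 3 days and 83.1, 51.6 and 74.2 at 7 days. At 3 days livers 2 and 3 were above all controls, liver 4 among them and liver 1 below, while all 3 livers at 7 days were above. The 7-day log2 fold change of Impdh2 was 0.84 (SE 0.24, limma adjusted p = 0.0167, exact permutation p = 0.0286). It passed in 3 of 21 alternatives, among them quantile normalisation (limma adjusted p = 0.00715). With the name ending MF as a covariate the change was 1.08 (limma adjusted p = 0.000139). The MF livers were the lowest at both times.

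The 4 livers at 3 days did not behave alike, and they kept nearly the same order from enzyme to enzyme. Liver 3 was the highest for 8 of the 9 enzymes, with Ppat, where liver 2 was the highest, as the exception. Liver 1 was the lowest for 9 of 9, and the full order 3, 2, 4, 1 was found for 6. The highest value was 8.56 times the lowest for Rrm2 and 7.89 times for Rrm1, then 3.49 for Cad, 2.81 for Umps, 1.98 for Impdh2, 1.93 for Tk1, 1.82 for Dhodh, 1.50 for Tyms and 1.13 for Ppat. On the log2 scale the SD of Rrm1 was 1.23 at 3 days, 0.17 in the controls and 0.18 at 7 days. That of Rrm2 was 1.28 at 3 days, 0.25 in the controls and 0.24 at 7 days. Enzymes of 1 liver share a library, so this order is a description of 4 libraries. Livers 1 and 4 are those with names ending in MF. Genes other than the 9 also kept this order, such as Xdh with 30.6, 58.8, 73.1 and 31.6 eRPKM in livers 1 to 4. Shmt2, with 41.2, 84.0, 101.6 and 56.6, did so too, whereas Guk1 had 50.6, 34.3, 23.0 and 60.5. The share of all genes with this order was not counted.

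A list of 16 genes of DNA replication and mitosis, which holds none of the 9 enzymes, ran in the same order in those livers. Its summed level was 135, 250, 450 and 206 eRPKM in 3-day livers 1 to 4, against 75.8 to 114.5 in the controls and 527, 458 and 473 in 7-day livers 1 to 3. Per gene, the median log2 difference of the 16 from the control mean was 0.28, 1.91, 2.99 and 1.20 at 3 days (livers 1 to 4), and 3.39, 2.94 and 3.24 at 7 days (livers 1 to 3). The 3-day liver with the highest summed level was thus the one with the highest Rrm1 and Rrm2, and the one with the lowest had the lowest. At 7 days 15 of the 16 genes rose, with a median log2 fold change of 3.26. The 4 with the largest changes were Ccnb1 (3.79), a mitotic cyclin, Mcm5 (3.70), a part of the replicative helicase, Cdk1 (3.69), the mitotic kinase, and Mki67 (3.67), the Ki-67 gene. At 3 days 0 of the 16 passed, with a median of 1.67. The part of the share of dividing cells in the values of the enzymes was not tested.

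**Figure D3:**
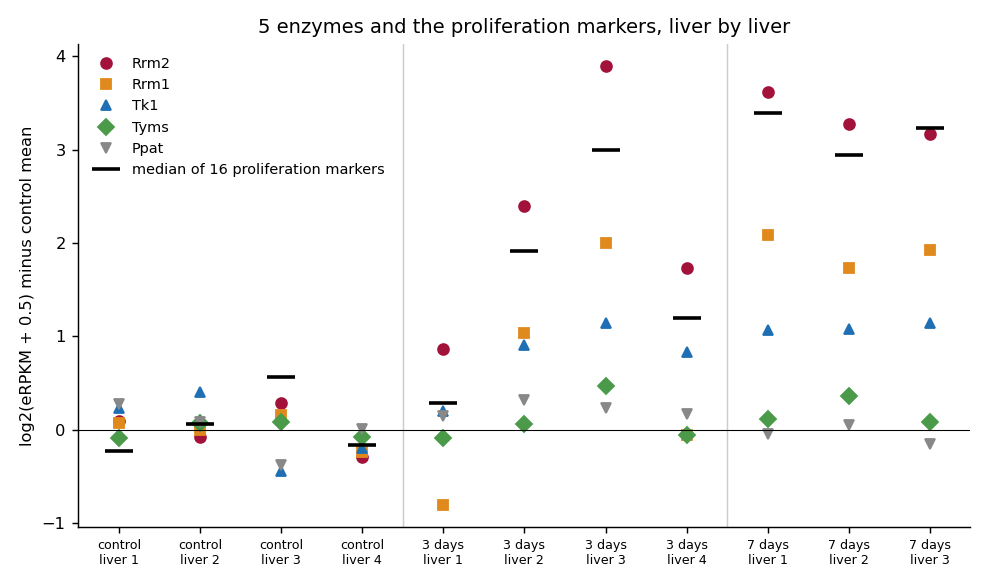
Difference from the control mean on the log2(eRPKM + 0.5) scale (y axis) in each of the 11 livers (x axis, by group), with a symbol for each of 5 enzymes and a black bar at the median of the 16 replication and mitosis genes. In the 3-day livers the bar lies at 0.28 to 2.99 and Rrm1 and Rrm2 spread most widely, while Tyms and Ppat stay within 0.5 of the control mean.

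Between 3 and 7 days 0 of the 9 enzymes passed the threshold, against 14% of all genes that rose and 5.31% that fell. An unadjusted limma p under 0.05 was found for 5 of the 9, beside 6578 of all 14244 genes tested. The median log2 difference was 0.61, beside 0.26 over all genes. The differences were 1.37 for Rrm1 (SE 0.49, limma adjusted p = 0.0435), 1.13 for Rrm2 (SE 0.50, limma adjusted p = 0.0966), 0.79 for Cad (SE 0.34, limma adjusted p = 0.0914) and 0.71 for Impdh2 (SE 0.24, limma adjusted p = 0.0386). Those of Rrm1 and Rrm2 depended on 1 library. Without 3-day liver 3 they were 1.85 (limma adjusted p = 0.00177) and 1.69 (limma adjusted p = 0.00151), and both passed. Dhodh was higher in every liver at 7 days than in every liver at 3 days, a separation seen in 31.3% of all genes. Its log2 difference was 0.61 (SE 0.28, limma adjusted p = 0.103, exact permutation p = 0.0571) and turned to -0.05 with quantile normalisation. Ppat was the 1 enzyme with all 7-day livers below all 3-day livers, as in 13.8% of all genes, with a log2 difference of -0.27 (SE 0.16, limma adjusted p = 0.206, exact permutation p = 0.0286).

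Ratios between subunits or isozymes were taken within each liver, as differences of log2(eRPKM + 0.5), and those of low genes depend on the 0.5 added. Of 18 exact permutation tests over 6 ratios, 8 reached p = 0.0286, the smallest possible for 4 against 4 or 4 against 3, and with adjustment over the 18 the lowest value was 0.0643. Rrm2 over Rrm1 was -0.30, -0.40, -0.20 and -0.38 in the controls, 1.35, 1.04, 1.57 and 1.46 at 3 days and 1.22, 1.23 and 0.92 at 7 days. The small subunit was thus below the large one in 4 of 4 controls and above it in 7 of 7 induced livers. The ratio was 1.68 higher at 3 days and 1.44 higher at 7 days than in the controls (exact permutation p = 0.0286 for both, 0.0643 adjusted over 18), and 3 and 7 days did not differ beyond the spread (-0.23, exact permutation p = 0.200). Unlike the levels of its subunits, it varied little among the 3-day livers, over 1.04 to 1.57. Rrm2b, the small subunit that supplies resting cells, had 3.80 ± 0.928 eRPKM in the controls (SD, n = 4), 4.30 ± 0.453 at 3 days (SD, n = 4) and 4.38 ± 1.35 at 7 days (SD, n = 3). The log2 fold change of Rrm2b at 7 days was 0.18 (limma adjusted p = 0.621) and turned to -0.06 with size factors and -0.50 with quantile normalisation. Rrm2 over Rrm2b was 3.18 higher at 7 days (exact permutation p = 0.0286, 0.0643 adjusted over 18), and 2.04 higher at 3 days (exact permutation p = 0.0571, 0.0935 adjusted).

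Tk1 over Tk2, the mitochondrial kinase of resting cells, was 0.63 higher at 3 days than in the controls (exact permutation p = 0.0857, 0.119 adjusted over 18) and 0.61 higher at 7 days (exact permutation p = 0.0286, 0.0643 adjusted over 18). Between 3 and 7 days it differed by -0.02 (exact permutation p = 0.943). Impdh1, the IMP dehydrogenase held to be constitutive, had 1.48, 1.51, 2.40 and 1.44 eRPKM in the controls, 1.90, 1.79, 1.77 and 1.47 at 3 days and 8.49, 7.41 and 10.3 at 7 days. The 3-day livers were among the controls and the 7-day livers well above them, and Impdh1 rose by a log2 fold change of 2.07 (SE 0.24, limma adjusted p = 3.62e-05). Impdh2 stayed the more abundant of the pair in every liver, but Impdh2 over Impdh1 went from a mean of 4.14 in the controls and 4.24 at 3 days to 2.91 at 7 days. It was 1.23 lower at 7 days than in the controls (a difference of -1.23, exact permutation p = 0.0286, 0.0643 adjusted over 18), with all 3 livers below all controls. With 0.1 or 1 added in place of 0.5 this difference ranged from -1.46 to -1.02.

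**Figure D4:**
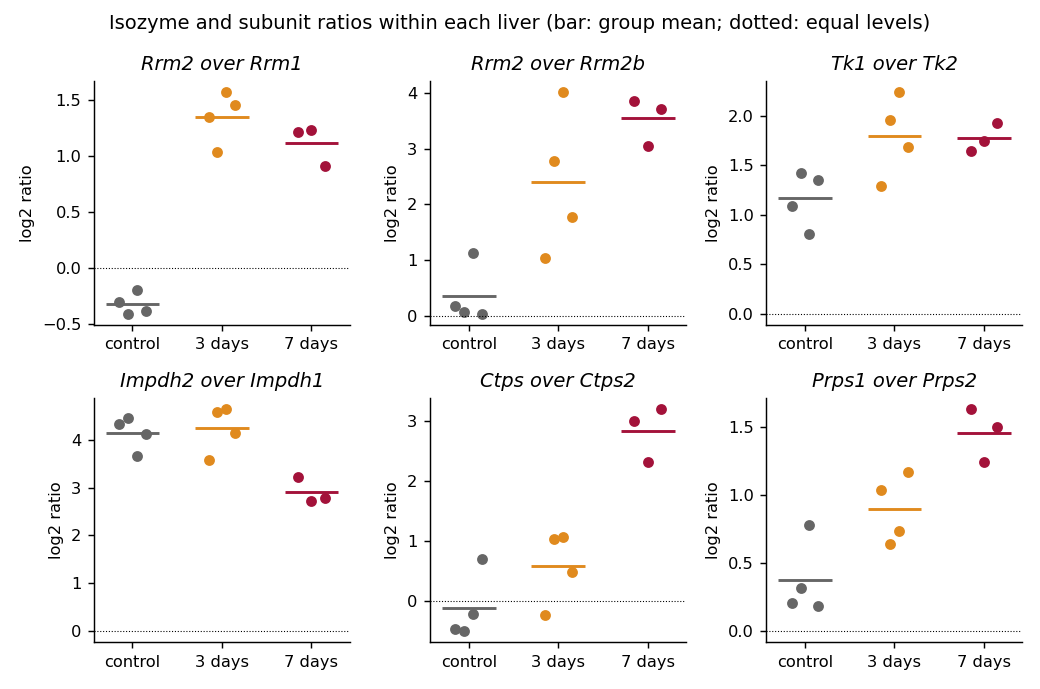
Log2 ratio of (eRPKM + 0.5) between 2 genes of the same liver (y axis) for 6 pairs of subunits or isozymes, in controls (n = 4), at 3 days (n = 4) and at 7 days (n = 3); points are livers, bars are means and the dotted line marks equal levels. Rrm2 over Rrm1 is below 0 in the controls and above 0.9 in every induced liver, while Ctps over Ctps2 and Impdh2 over Impdh1 move at 7 days.

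The enzymes next to the 9 in their pathways were taken as 6 lists with 85 genes, of which 83 passed the filter. At 7 days 16 rose and 10 fell, with a median log2 fold change of 0.28, against 0.26, 18% and 5.77% for all genes. Without the 9 enzymes 13 of 74 rose and 10 fell. With size factors the 83 gave 13 rises and 9 falls, and with quantile normalisation 14 and 8. At 3 days 0 rose and 0 fell by limma.

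In the de novo pyrimidine list 1 of 8 genes rose and 0 fell, with a median of 0.57. The 1 was Ctps, CTP synthase, with 2.76, 3.52, 3.58 and 4.02 eRPKM in the controls, 2.56, 7.02, 7.50 and 5.26 at 3 days and 60.8, 40.1 and 55.7 at 7 days. At 3 days 3 of 4 livers were above all controls and at 7 days all were, by far. Its 7-day log2 fold change of 3.72 (SE 0.30, limma adjusted p = 4.32e-06) was the largest rise of the 83 genes. The step from 3 to 7 days was 3.18 (SE 0.30, limma adjusted p = 1.62e-05). At 3 days its change was 0.53 (SE 0.28, limma adjusted p = 0.478). Ctps over Ctps2, the second CTP synthase, was 2.95 higher at 7 days than in the controls and 2.24 higher than at 3 days (exact permutation p = 0.0286 for both, 0.0643 adjusted over 18).

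In the de novo purine list 2 of 15 genes rose and 0 fell, with a median of 0.45. These were Impdh1 and Prps1 (0.98, SE 0.18, limma adjusted p = 0.0012), which makes phosphoribosyl pyrophosphate. Prps1 spanned 15.3 to 26.2 eRPKM in the controls, then 29.1 to 37.8 after 3 and 39.0 to 45.4 after 7 days, with no overlap between any of the groups. In the list of deoxynucleotide supply 7 of 17 rose and 0 fell, with a median of 0.59. Beside Rrm1, Rrm2 and Tk1, these included Dck, deoxycytidine kinase (1.77, SE 0.33, limma adjusted p = 0.0013), and Dtymk, which carries thymidylate on to its diphosphate (1.34, SE 0.21, limma adjusted p = 0.00037). Samhd1, which degrades deoxynucleotides, was also among the 7 (1.27, SE 0.28, limma adjusted p = 0.00388), and is named here after its value was seen. Its call was lost in 6 of 21 alternatives, among them without control liver 1 or any 1 of the 7-day livers (limma adjusted p = 0.00424 to 0.0234 over the 7 fits that leave out a library).

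The lists of salvage and breakdown held rises and falls. In salvage 4 of 14 rose and 4 fell, with a median of 0.11. Upp2, a uridine phosphorylase of liver, had 152, 114, 125 and 248 eRPKM in the controls, 106, 119, 110 and 92.8 at 3 days and 9.77, 8.80 and 5.44 at 7 days. It fell by 4.21 on the log2 scale (SE 0.26, limma adjusted p = 5.86e-07), with all 7-day livers far below the rest. Its isozyme Upp1 rose from a mean of 0.993 to 4.72 eRPKM (log2 fold change 2.05, SE 0.48, limma adjusted p = 0.0049). This call held in 10 of 21 alternatives, and was lost without control liver 1 or any 1 of the 7-day livers (limma adjusted p = 0.00172 to 0.0223 over the 7 fits that leave out a library). Ada, adenosine deaminase (1.70, SE 0.40, limma adjusted p = 0.00493), and Uck2, a uridine and cytidine kinase (1.50, SE 0.25, limma adjusted p = 0.0006), also rose. Uck2 passed in 21 of 21 alternatives and Ada in 10 of 21. Without a library Ada passed only when that was control liver 2 (limma adjusted p = 0.000456, against up to 0.0296 in the other fits). In breakdown 2 of 15 rose and 5 fell, with a median of 0.26. Dpyd and Dpys, which reduce and then open the pyrimidine ring, fell by 1.74 (SE 0.16, limma adjusted p = 9.95e-06) and 1.51 (SE 0.14, limma adjusted p = 1e-05), and Uox, urate oxidase, fell by 1.72 (SE 0.29, limma adjusted p = 0.00057). Reads of Uox did not follow depth, with 2320 in control liver 2 (222 eRPKM) and 1546 in control liver 4 (651 eRPKM). The part of depth in its fall was not tested. Its log2 fold change ranged from -1.98 to -1.02 over 21 alternatives, all of which it passed. Nt5c, a nucleotidase for deoxynucleotides, rose (1.53, SE 0.32, limma adjusted p = 0.00229), and did not pass without 7-day liver 2 or 3 (limma adjusted p up to 0.0126). In the list of folate and 1-carbon supply 0 of 14 rose and 1 fell, with a median of -0.13. This was Aldh1l1, which oxidises formyl-tetrahydrofolate and fell by 0.89 (SE 0.22, limma adjusted p = 0.00609). Its call held in 7 of 21 alternatives (log2 fold change -1.16 to -0.34, limma adjusted p = 0.00168 to 0.0561), and without a library only when that was control liver 2 or 4.

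**Figure D5:**
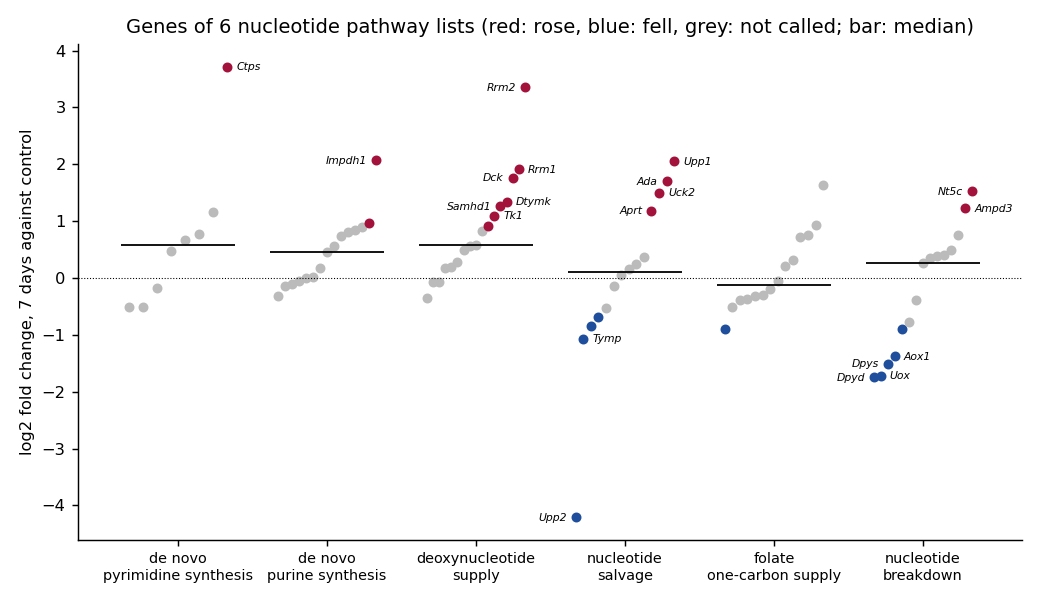
Log2 fold change at 7 days against control (y axis) of the tested genes of 6 nucleotide lists, with a point per gene in ascending order and a bar at the median of each list; red genes rose, blue fell and grey did not pass. Ctps at 3.72 and Upp2 at -4.21 are the extremes, and the deoxynucleotide list has 7 red and 0 blue genes.

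The genes nearest in pattern to the 3 enzymes that passed were found among all 14244 by the root-mean-square difference of log2 values over the 11 libraries, after the mean of each gene was taken off. Nearest to Rrm2 were Mcm6 (0.242), Ercc6l (0.277) and Ckap2l (0.305), against a median of 1.49 over all genes. Nearest to Rrm1 were Brca2 (0.196), Ttc39a (0.203) and Slfn9 (0.226, median 0.977), and nearest to Tk1 were Pkp4 (0.157), Rpa1 (0.170) and Cbx5 (0.174, median 0.614).

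Markers of other cells of the liver moved at 7 days too. Of 8 hepatocyte markers 0 rose and 3 fell, with a summed level of 1465 to 4110 eRPKM in the controls and 1054 to 1200 at 7 days. Reads of Alb and Apoa1, both among the 8, did not follow depth. Alb had 2417 to 3102 per control library and 2840 to 2934 at 7 days, and Apoa1 had 1078 to 1423 and 1471 to 1496. Reads of Cyp2e1, another of the 8, were 1721 to 2353 and 968 to 1029. The part of depth in the summed level was not tested. Of the 5 macrophage markers measured, 4 rose (179 to 368 summed eRPKM in the controls, 651 to 729 at 7 days), as did 2 of 5 endothelial markers (53.4 to 105 and 144 to 175), 1 of 4 tested cholangiocyte markers (5.94 to 7.81 and 12.8 to 19.4 over 5 genes) and 1 of 2 tested neutrophil markers (8.30 to 17.2 and 25.6 to 39.2 over 3 genes). Of 5 stellate cell markers 1 fell, as did 1 of 3 tested erythroid markers, and 0 of 5 T and NK cell and 0 of 4 B cell markers passed. No marker passed at 3 days, when macrophage markers summed to 208 to 399 eRPKM. No marker list was at 0 in any group as a whole, while the neutrophil gene Mpo was listed at 0 in the 3-day livers. The part of these other cells in the changes of the 9 enzymes was not tested.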

How the data were processed

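Total RNA of 11 livers was prepared with TruSeq v2 kits. According to the study's methods and the submitters' processing notes, reads were aligned to mm9 with TopHat2 2.0.8 as unstranded, the methods name DESeq2 for differential expression, and the notes name featureCounts 1.4.5-p1 without a role. The authors deposited RPKM values of exons (eRPKM) per gene and liver. The authors' columns of mean, fold change and adjusted p (7 days against control) were not used.

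Since the table holds eRPKM and no raw counts, log2(eRPKM + 0.5) was fitted with limma 3.58.1 (R 4.3.3; trend) over the 3 groups, for the 14244 genes with at least 0.5 eRPKM in 3 or more libraries, with Benjamini-Hochberg adjustment over all of them. Genes passed at an adjusted p under 0.01 if the log2 fold change was also above 0.5 in size, the threshold of the study. The steps of the values gave whole reads for 177553 of 177553 values above 0 (100%, within 0.1 read), which gave the depths and a limma-voom alternative. This called 2800 rises and 949 falls at 7 days and 1 rise and 0 falls at 3 days.

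Exact permutation tests were two-sided (Python 3.11.15, scipy 1.17.1), and the limma step was tested on simulated data. Exact p-values of single enzymes, from 27 tests, are not adjusted. Members and lists were chosen with earlier results of these data known. Named were the 9 enzymes, the partners in ratios, the 4 genes with the largest changes among those that passed in each list, and the 3 genes nearest to each enzyme that passed. Gene positions are from GENCODE M1, and promoters from RefSeq. Dhodh has no promoter shown. The alternatives tried were the pseudocount, the filter, scaling, variance model, samples in the fit, replicate block, Xist, call rule, voom and each library left out. Sex, depth and the name ending MF were added after the data were seen.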

Additional observations from a re-analysis of the deposited data

Results flagged for a closer look

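Of 30 sets of 4 livers examined for a liver far from the others, 1 exceeded the 95% limit of Dixon's test, and chance gives about 1 in 20. This was Rrm2 over Rrm2b in the controls, where liver 3 stood at 1.14 on the log2 scale and the others at 0.04 to 0.18, a gap of 0.876 of the whole range. In that liver Rrm2 was the highest of the controls (6.10 eRPKM) and Rrm2b the lowest (2.50 eRPKM).

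Of the genes of the lists that are named, 8 passed the limma threshold between 3 and 7 days, which tests the difference between the effects at both times against the shared controls. Ctps was 3.18 higher at 7 than at 3 days on the log2 scale, Impdh1 2.04, Samhd1 1.52 and Uck2 1.32. Upp2 (-3.69), Dpyd (-1.50), Uox (-1.36) and Dpys (-1.34) were lower. None of the 8 is among the 9 enzymes.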

How the results depend on the processing

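Of the values of the 9 enzymes under the alternatives, 198 of 207 were positive at 3 days, 177 of 198 at 7 days and 171 of 198 between 3 and 7 days. Rrm2 at 7 days passed in all 21 alternatives run. Over all genes the rises at 7 days (2561) ranged from 1099 to 3969, and from 1588 to 2449 when a library was left out, and those at 3 days (6) from 0 to 53. The depth of single libraries limits the precision of low genes, such as Rrm2 with 11 reads in control liver 4. Reads of a very abundant gene such as Alb did not follow depth. Control livers 2 and 4 held 5495697 and 1251396 reads on genes. Alb had 3102 and 2417 reads in them, and thus 268 and 918 eRPKM. The cause was not tested. The exact tests of the 7-day comparisons cannot reach 0.05 with a library left out and were not run so.

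The enzymes that rose at 7 days (3) became 5 with only the groups compared, 5 at an adjusted p under 0.05, 5 with MF as a covariate and 1 with depth as a covariate; leaving out a library gave 1 to 2 (0 to 1 at 3 days, 0 to 2 between 3 and 7 days, where quantile normalisation gave 1, MF 1 and p under 0.05 gave 2). The pathway genes that rose at 7 days (16) became 26 at p under 0.05, 25 with MF, 10 among females and 7 with depth, and 9 to 15 without a library. Those that fell (10) became 4 among females and 5 with depth, and 5 to 10 without a library. Between 3 and 7 days 6 rose, 16 at p under 0.05, 11 by voom and 4 to 10 without a library, and 8 fell, 13 at p under 0.05, 3 with Xist, 4 among females, 4 with depth and 3 to 9 without a library. At 3 days 0 to 1 pathway genes rose without a library. Enzymes with an exact permutation p under 0.05 at 3 days (1) became 2 with size factors and 0 to 3 without a library.

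Replicate numbers are shared between groups, and deviations of same-numbered libraries correlated at -0.22 to 0.27. Differently numbered libraries were not set beside these, so a pairing of the livers by number is neither shown nor excluded. With the replicate block 1 enzyme rose at 7 days, 4 pathway genes fell between 3 and 7 days, and Rrm2b turned to 0.021 there.

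Small log2 changes reversed as follows. At 3 days, among females, Aldh1l1 came to 0.024, Dhodh to -0.094, Impdh1 to -0.19, Nt5c to -0.092 and Upp1 to -0.15, and with depth Dhodh came to -0.028. At 7 days Dhodh came to -5.5e-05 (quantile), Ppat to 0.027 (Xist) and 0.093 (females), Rrm2b to -0.064 and -0.50 and Tyms to -0.071 and -0.35 (size factors and quantile). Between 3 and 7 days Dhodh came to -0.047 (quantile), Rrm2b to 0.019 (Xist) and 0.050 (MF), and Tyms to -0.15 (size factors), -0.40 (quantile) and -0.020 (females). The causes were not tested. Without 1 library the 3-day values ranged from -0.33 to 0.0091 for Aldh1l1, -0.12 to 0.20 for Dhodh, -0.023 to 0.17 for Impdh1, -0.013 to 0.31 for Impdh2, -0.020 to 0.23 for Prps2, -0.027 to 0.16 for Tyms and -0.029 to 0.46 for Umps. The 7-day values then ranged from -0.17 to 0.043 for Ppat, -0.24 to 0.0096 for Prps2 and -0.032 to 0.36 for Rrm2b. Between 3 and 7 days they ranged from -0.21 to 0.18 for Rrm2b and -0.00021 to 0.21 for Tyms. Tk1 over Tk2 ranged from -0.19 to 0.13 between 3 and 7 days, and Impdh2 over Impdh1 from -0.063 to 0.32 at 3 days.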

Other observations

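The uridine phosphorylases Upp1 and Upp2, which split uridine into uracil and ribose phosphate, drew near each other in level at 7 days. This pair was chosen after its values were seen, and no test is given. The log2 ratio of Upp1 over Upp2 was -7.27, -5.93, -5.59 and -8.96 in control livers 1 to 4 and -5.79, -6.27, -6.34 and -5.003 in the 3-day livers. In the 7-day livers it was -0.85, -1.10 and -0.08. Upp1 had 0.488, 1.38, 2.10 and 0 eRPKM in the controls and 5.20, 3.83 and 5.13 at 7 days, and Upp2 remained the higher of the pair in every liver.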
